A study of Schizosaccharomyces pombe with 14 samples.

Results

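Small nucleolar RNA (snoRNA) genes were the subject here: the 57 rows of the fission yeast count table that the authors' annotation gives the type snoRNA gene, of 6988 gene identifiers in all. No measured value entered their choice. They were followed through long phosphate starvation in 2 strains of Schizosaccharomyces pombe, an h+ strain carrying maf1[delta]::natMX and an h- wild type. maf1 (SPAC31G5.12c) encodes a repressor of RNA polymerase III, and the series asks what it contributes when starved cells enter quiescence. Both strains were sampled at 0, 4, 8, 12, 24, 36 and 48 h. At 0 h they grew in logarithmic phase in rich YES medium, and at every later time in the synthetic medium ePMGT(-PO4), so the loss of phosphate and the change of medium cannot be told apart in a comparison with 0 h. The labels describe 4 to 12 h as limited growth and 24 to 48 h as quiescence, and these stages are called early and late below. Each of the 14 groups had 3 replicate libraries. Nothing in the labels says that they came from separate cultures, so p-values measure the spread between these libraries alone.

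snoRNAs guide the chemical modification and the cutting of ribosomal RNA in the nucleolus. Box C/D snoRNAs direct ribose methylation with the methyltransferase fibrillarin, and box H/ACA snoRNAs direct pseudouridine formation with the synthase Cbf5 (dyskerin in humans). A few, U3, U14 and U17 (called snR30 in yeast), take part in the cuts that release the small-subunit ribosomal RNA. In fission yeast most are made by RNA polymerase II, either from their own promoters, as groups on a shared primary transcript, or from introns of protein genes, and the mature RNA carries no lasting poly(A) tail. The libraries were made from poly(A)+ RNA with a stranded kit, so the counts report the portion of these RNAs, or of their precursors, that this selection kept, and not the whole pool. In RNA from whole cultures, fewer cells that hold a transcript and less of it per cell cannot be told apart.

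The targeted gene followed the labels. Its level, in TMM-scaled CPM (a gene's counts relative to its library's effective depth), ran from 1.59 to 7.13 over the 21 deletion libraries and from 20.9 to 106 over the 21 of the wild type. Total counts ran from 33249827 to 42808200 in deletion libraries and from 12157201 to 26359389 in wild-type libraries, so depth and mating type changed together with genotype, and none of these 3 can be told apart between strains. The third replicate of the wild type at 36 h stood apart for several snoRNAs, and its values are given where they matter. The strand setting used for counting is not given in the sources used here, and 10 members overlap a counted gene on the opposite strand, so those counts are uncertain.

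Of the 57 members, 43 had enough counts to be tested and 14 did not. Of the 14, 9 held 0 counts in all 42 libraries, and the other 5 (snoU24, snR10, snr62, snR5 and snR46) held between 10 and 93 counts over all libraries together. All 8 members that lie in an exon of a same-strand gene with its own row in the count table were at 0: snoZ3, snoZ4, snoZ5, snoZ7 and snoZ8 in the noncoding transcript SPNCRNA.659, snoZ30 in SPNCRNA.1483, snoR68 in SPNCRNA.1650 and snR97 in SPNCRNA.617. The remaining member at 0, sno16, has no such overlap. Reads that belong to 2 features are set aside by common counting rules, and whether that was done here was not tested. The SPNCRNA.659 row, which spans 5 snoRNAs, was itself 1.81 higher on the log2 scale in the maf1 deletion late than early (SE 0.10, adjusted p = 4.81e-19).

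The annotation gives 19 members as box H/ACA, 2 as U3 and 1 (snoZ30) as box C/D, and leaves 35 without a class. By position, 31 overlap no same-strand gene and are called standalone, 11 lie in introns, 8 in exons of counted genes and 7 in exons of genes that have no row of their own. Per kilobase of annotated length, snoU14 had the highest mean level over all libraries (974 CPM per kb). It was followed by snR30 (623 CPM per kb), snr79, snR95 (238), sno12 (157), sno52 (144), snoZ16 (141) and snoR61 (136 CPM per kb). snoU14 and snR30 encode U14 and U17, and snR95 and sno12 are box H/ACA RNAs. At the low end of the tested members stood snR96 with 2.35 and snoR39a with 2.07 CPM per kb. The snoR61 row is 653 nt long and the snR90 row 488 nt, so these rows span more than a typical snoRNA.

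The summed snoRNA level had its lowest group mean at 4 h in both strains and its highest at 48 h. In deletion cells the members summed to 381 ± 11.4, 207 ± 7.64, 377 ± 19.0, 508 ± 29.2, 911 ± 31.9, 1110 ± 80.8 and 1580 ± 56.9 CPM at 0, 4, 8, 12, 24, 36 and 48 h (SD, n = 3 each). In wild-type cells they summed to 667 ± 11.9, 310 ± 5.03, 485 ± 24.6, 703 ± 35.6, 923 ± 40.0, 951 ± 77.1 and 997 ± 31.3 CPM at the same times. The sum was thus below that of the wild type in the deletion at 0, 4, 8 and 12 h and above it at 48 h, by more than the spread between libraries each time. snoR61, snR30 and snoU14 alone made up 63.4% of the sum in deletion cells at 48 h and 31% at 0 h. Without these 3 the sum was 580 CPM in the deletion at 48 h, against 441 CPM in the wild type, and 263 CPM in the deletion at 0 h, against 376 CPM in the wild type.

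**Figure D1:**
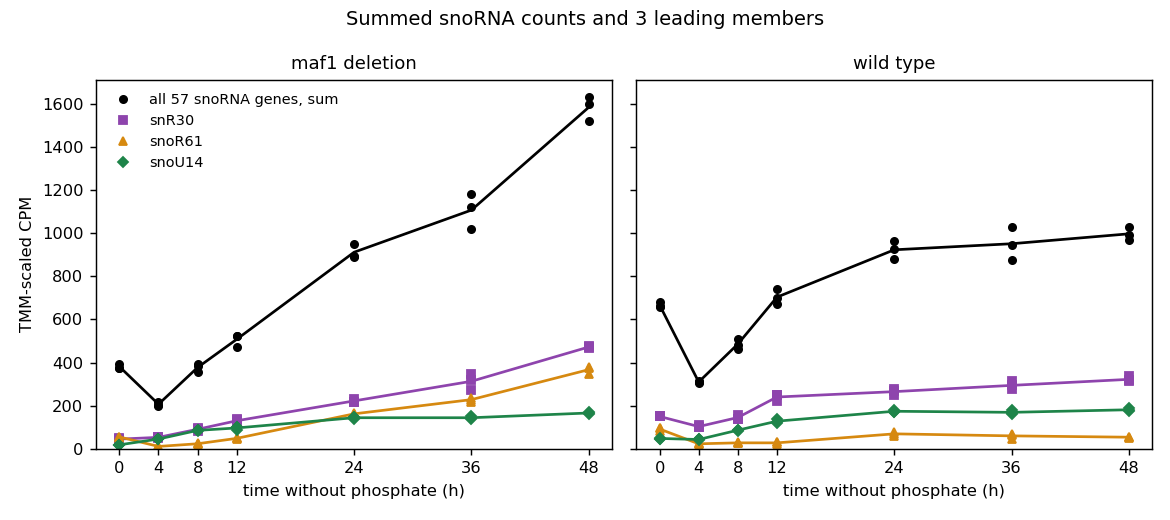
Summed TMM-scaled CPM of the snoRNA genes and the CPM of 3 leading members (vertical axis) against hours without phosphate, with the maf1 deletion on the left and the wild type on the right; points are libraries and lines join the group means. The deletion's sum reaches 1580 CPM at 48 h and the wild type's 997 CPM.

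Other RNA types that poly(A) selection should leave behind moved as well. tRNA rows summed to 993 CPM in deletion cells at 48 h, against 16.2 CPM in wild-type cells, and at 0 h to 2.65 CPM in deletion cells, against 12.7 CPM in wild-type cells. rRNA rows summed at 48 h to 135 CPM in deletion cells, against 41.0 CPM in wild-type cells, and at 0 h to 355 CPM in deletion cells, against 26.0 CPM in wild-type cells. The 5 snRNA rows summed at 48 h to 14.2 CPM in deletion cells, against 11.3 CPM in wild-type cells, and at 0 h to 1.55 CPM in deletion cells, against 6.09 CPM in wild-type cells. The part that a changing yield of RNA without a lasting poly(A) tail has in the snoRNA values was not tested.

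In the maf1 deletion, most tested snoRNAs were lower in the early stage than at 0 h. Against the strain's own 0 h, 25 of the 43 tested members fell, 5 rose and 13 were not called; of all 6521 genes tested, 16.3% were called lower and 18.7% higher. A call required an adjusted p (edgeR's quasi-likelihood test, Benjamini-Hochberg) under 0.05 and a change of at least 2-fold. The members' median change was -1.39 on the log2 scale, and that of all genes was 0.01. Of 15 tested box H/ACA members 8 fell and 1 rose, and of 26 without a class 17 fell and 4 rose. Of the 43, 29 (67.4%) had the lowest mean of the time course at 4 h, as did 17.3% of all genes tested.

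The deepest early falls were those of snoR39a, snoZ15, snR33 and snoU24b. snoZ15, which lies in an intron, had 0.113 CPM in its lowest early deletion library, a median of 0.283 and a maximum of 0.422 CPM, against 3.49, 4.26 and 3.89 CPM at 0 h. No early library came near the 0 h ones, and the fall was -3.84 (log2, SE 0.20, adjusted p = 8.54e-20). snoU24b, an intronic relative of the methylation guide U24, changed by -3.17 (SE 0.19, adjusted p = 5.24e-18). snoR39a was at 0 CPM in all 3 deletion libraries at 4 h and at 0.674, 0.687 and 0.516 CPM at 0 h; its fitted change of -5.04 depends on the prior count and is no measured fold. The members that rose early were led by snoR54b (2.66, SE 0.76, adjusted p = 0.00156), snoU14 (1.97, SE 0.05, adjusted p = 2.21e-29), snoR38 (1.44) and snR95 (1.20). snoR54b had a mean of 0.404 CPM over all libraries, so its change rests on few counts. snoU14 was already at 44.7, 47.0 and 44.1 CPM in the deletion at 4 h, against 17.7, 18.8 and 18.6 CPM at 0 h.

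Late in starvation the deletion strain held more of most snoRNAs than it had early. In the late stage against the early stage, 28 of 43 members were called higher and none lower by edgeR, with a median of 1.61. Of all genes, 13.2% were called higher and 6.29% lower, with a median of 0. Among negative changes, 1 member (snoR38) had an unadjusted p under 0.05, and DESeq2 called 0. snoR38 changed by -0.95, which is under the 2-fold limit. It was called lower with library size alone (-1.02, adjusted p = 1.19e-09 by edgeR) and without replicate 3 (-1.03). The rise covered both U3 genes, 7 of 15 box H/ACA members and 19 of 26 without a class. Among the 43, 27 (62.8%) reached their highest mean at 48 h, as did 21.6% of all genes. Against the strain's own 0 h, 15 members were higher late and 7 lower (22.6% and 18.7% of all genes), with a median of 0.65, and TMM over protein-coding genes shifted the median of all genes here by 0.14.

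The largest late rises over the early stage belonged to snR41 (4.10, SE 0.18, adjusted p = 7.49e-22), snoR39a (4.02, SE 0.53), snR70 (3.81, SE 0.20) and snR51b (3.56, SE 0.09, adjusted p = 9.39e-30). Against the own 0 h, snoU14, the U14 RNA that pairs with small-subunit precursor RNA, was 8.22-fold higher (log2 3.04, SE 0.05, adjusted p = 7.73e-35). snR30, the U17 RNA, had 471, 468 and 478 CPM in the deletion at 48 h and 41.7, 48.3 and 44.7 CPM at 0 h. Its late stage was 7.14-fold above 0 h (2.84, SE 0.06, adjusted p = 2.61e-31), and every late library lay above every 0 h library. Lower late than at 0 h were snR33 (-2.78, SE 0.14), snoR54 (-2.17, SE 0.24), snoR47 (-1.83, SE 0.24) and snR88 (-1.57, SE 0.26). snoR54 and snoR47 lie in introns.

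**Figure D2:**
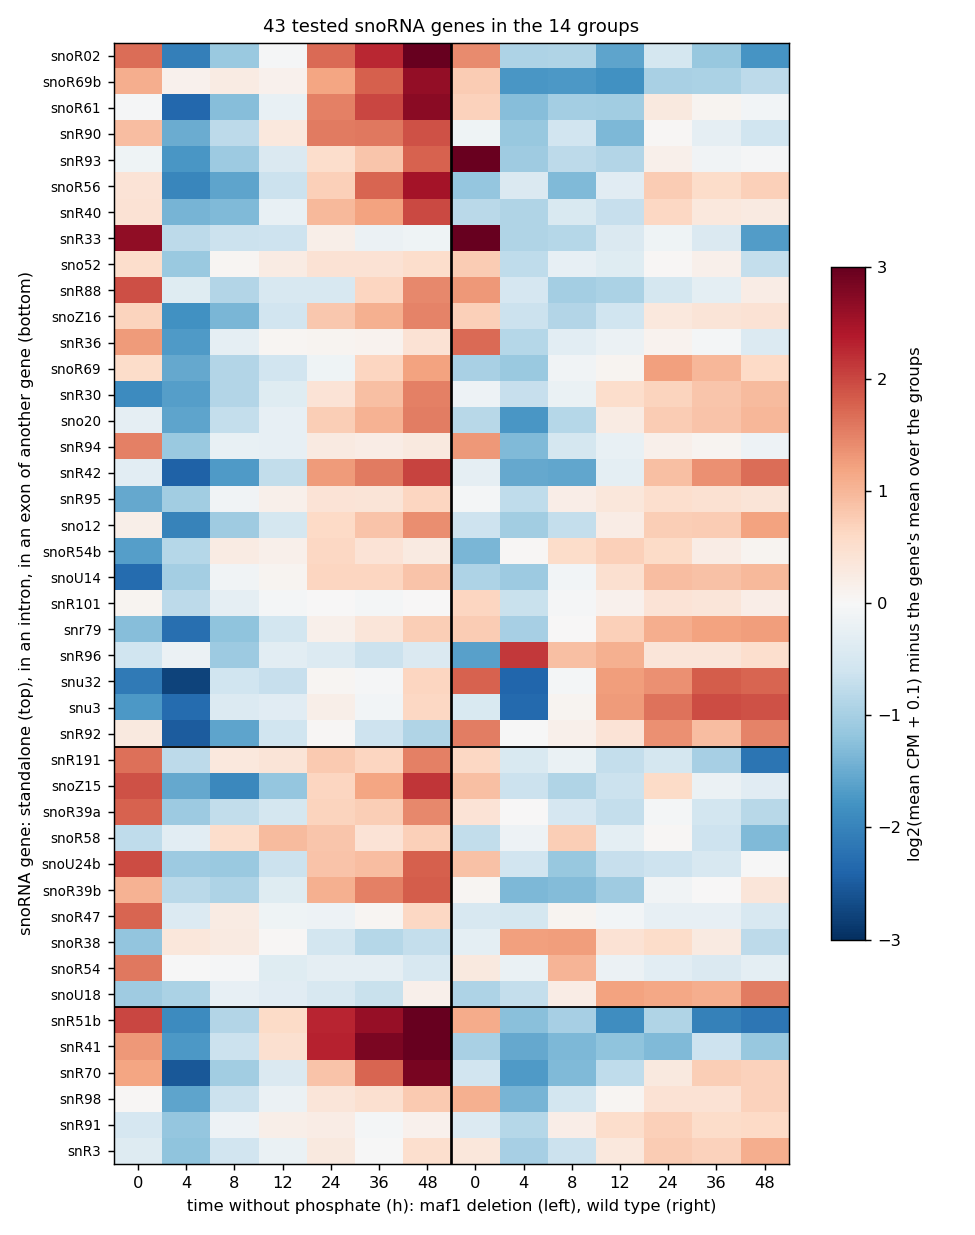
Levels of the 43 tested snoRNA genes (rows) in the 14 groups (columns, by hours without phosphate, maf1 deletion left and wild type right); colour is log2(mean CPM + 0.1) minus the gene's mean over the groups. In the deletion 29 members are lowest at 4 h and 27 highest at 48 h.

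Within the late stage 13 snoRNAs of the deletion rose further. At 48 h against 24 h, which was compared once values had been seen, 13 of 43 members were called higher and none lower by edgeR. The members' median was 0.71 (5.69% of all genes were called higher and 2.28% lower). Among negative changes, 1 member (snR92) had an unadjusted p under 0.05, and DESeq2 called 0. snR92 changed by about -1. It was called lower with library size alone (-1.07, adjusted p = 0.000571 by edgeR), without replicate 1 (-1.15) and without replicate 3 (-1.15). The largest rises were those of snR88 (2.32, SE 0.41, adjusted p = 5.56e-06), snR70 (2.07), snoR56 (1.77) and snoZ15 (1.55). snoR56, a standalone gene, had 21.4, 18.4 and 21.3 CPM at 48 h and 6.22, 6.29 and 5.32 CPM at 24 h. In the wild type no member was called higher in that interval and 6 were called lower, with a median of -0.06 (0.583% of all genes higher, 2.81% lower). Positive changes of 6 members (snR30, sno12, snR3, snR42, snr79 and snu32) had an unadjusted p under 0.05, and DESeq2 called 0. Of these, snR42 (0.79, adjusted p = 8.81e-06 by edgeR), sno12 (0.45), snR30 (0.28) and snR3 (0.33) had an adjusted p under 0.05. They rose by less than the 2-fold limit. The 6 that fell included snR191 (-2.23, SE 0.72, adjusted p = 0.011), snR33 (-1.76), snoR58 (-1.46) and snoR02 (-1.43). By edgeR, snR191 lost its call without replicate 1 (-1.02, adjusted p = 0.421) and snR33 without replicate 2 (-1.25, adjusted p = 0.0872). snoR02 lost its call without replicate 1 (adjusted p = 0.061) and without replicate 2 (adjusted p = 0.0756). Whether the strains differ in this interval was not tested.

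In the wild type, 19 of the 43 members were lower early than at 0 h and 4 were higher (18.9% and 19.6% of all genes). The median was -0.87, against 0.04 for all genes. Scaling by library size alone shifted the median of all genes here by -0.18. snR33, a box H/ACA RNA, had 0.817, 0.683 and 0.688 CPM at 4 h, against 24.3, 22.8 and 25 CPM at 0 h. Early, it was 28.5-fold lower than at 0 h (-4.83, SE 0.16, adjusted p = 5.01e-26). snR93, another box H/ACA RNA, fell by 3.97 (SE 0.12, adjusted p = 8.21e-27), snoR69b by 2.77 (SE 0.21) and snoR02 by 2.73 (SE 0.21). The 4 that rose were snR96 (4.32, SE 0.59), snoR54b (2.65, SE 0.73), snoU18 (1.32, SE 0.27) and snoR38 (1.30, SE 0.18). snR96 and snoR54b had means of 0.495 and 0.404 CPM over all libraries, so their changes rest on few counts. snR96 lies opposite the mitochondrial import gene tim17, which itself changed by -1.19 (SE 0.03).

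Late in the wild type, 13 members stood above 0 h and 11 below (22% and 20.1% of all genes), with a median of -0.08. With library size alone as the scaling, 39.4% of all genes' calls in this comparison were higher, against 52.3% with TMM, and the median of all genes shifted by -0.27. snR33 was 30.1-fold below 0 h (-4.91, SE 0.17, adjusted p = 1.29e-25), snR93 changed by -3.02 (SE 0.12) and snR51b by -2.93 (SE 0.16). Above 0 h were snR96 (3.25, SE 0.68), snoR54b (2.49, SE 0.76), snoU18 (2.44, SE 0.24) and the U3 gene snu3 (2.30, SE 0.15). The changes of snR96 and snoR54b rest on few counts here too. Against the early stage, 18 members were called higher late and 1 lower (6.62% and 6.16% of all genes), with a median of 0.88. The rises were led by snR42 (2.47, SE 0.09, adjusted p = 1.11e-23), snR70 (2.19, SE 0.28), snu3 (2.18) and snu32 (2.06). The member called lower was snR96 (-1.07, SE 0.28, adjusted p = 0.000809). snR42, a box H/ACA RNA, had 29.6, 25.5 and 26.2 CPM in wild-type cells at 48 h and 3.40, 1.84 and 3.20 CPM at 4 h.

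**Figure D3:**
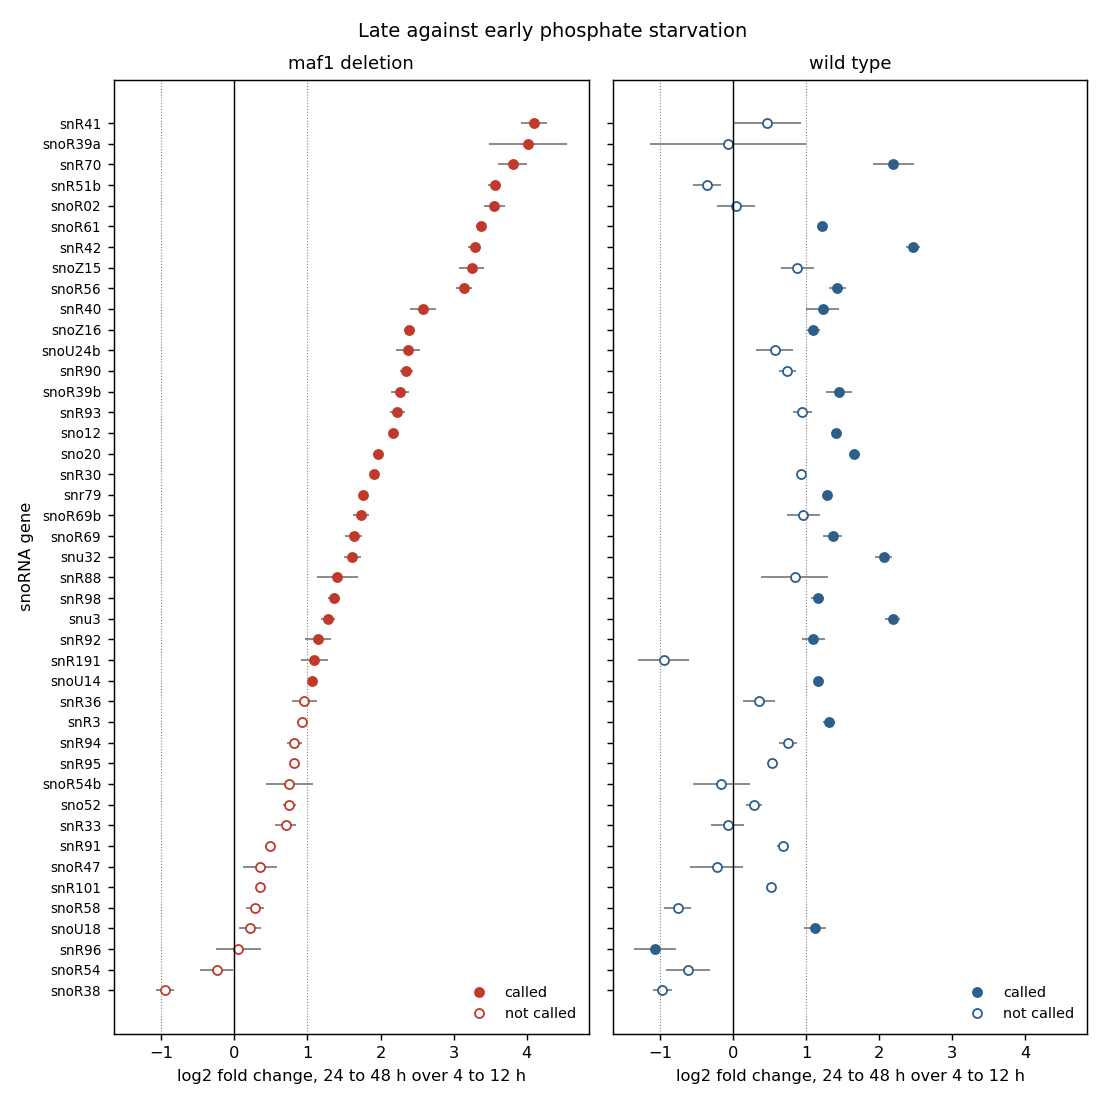
log2 fold change of each tested snoRNA gene (vertical axis) at 24 to 48 h over 4 to 12 h without phosphate, with the maf1 deletion on the left and the wild type on the right; bars are standard errors, filled points are called and dotted lines mark a change of 2-fold. In the deletion 28 of 43 members are called higher and 0 lower, in the wild type 18 higher and 1 lower.

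The change of the late over the early stage was higher in the deletion than in the wild type for 16 of the 43 members. These were the calls of the difference between strains in that change, and none was called lower (9.75% of all genes were called in that direction and 4.22% in the other). In the other direction, 6 members (snoU14, snoU18, snR3, snR101, snu3 and snu32) had an unadjusted p under 0.05, and DESeq2 called 0. Of these, snoU18 (-0.91) was called lower without replicate 1 (-1.08) and snu3 (-0.9) without replicate 3 (-1.07). The members' median difference was 0.77, and that of all genes was -0.01. The difference was 3.92 for snR51b (SE 0.22, adjusted p = 2.9e-18), 3.63 for snR41 (SE 0.57) and 3.52 for snoR02 (SE 0.31). snR41 was near the counting limit in the wild type, where its late minus early change was 0.47, and 1.47 without replicate 3. Among the 16, snoR58 and snR96 had no called rise in the deletion. For snR96 the late minus early change was 0.05 there and -1.07 in the wild type, and its difference of 1.13 lost its call without replicate 1 (0.56, adjusted p = 0.344). For snoR58 the changes were 0.28 in the deletion and -0.76 in the wild type, and its difference of 1.04 lost its call without replicate 3 (0.81, under the 2-fold limit). snoR39a, with a difference of 4.09 (SE 1.39, adjusted p = 0.00838), had 0 counts in several early libraries and lost its call without replicate 1 (adjusted p = 0.0607) and without replicate 2 (adjusted p = 1).

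Directly compared late in starvation, 15 members were higher in the maf1 deletion than in the wild type and 5 were lower (10.9% and 6.62% of all genes), with a median of 0.36 against -0.01 for all genes. The members without a class accounted for 13 of the 15 (median 1.00 over 26). Of 15 box H/ACA members 2 were higher and 2 lower (median 0.05), and both U3 genes were lower. Members without a class only lack an annotated one and may include box H/ACA RNAs, so these counts do not compare kinds of snoRNA. Of 10 tested intronic members 6 were higher and 1 lower. snoR61 had 374, 346 and 379 CPM in the deletion at 48 h, against 56.2, 50.5 and 54.5 CPM in the wild type. Late, it was 3.92-fold higher in the deletion (1.97), and no library of the strains overlapped. snoR02 had 16.8, 13.3 and 15.8 CPM in the deletion at 48 h, against 0.576, 0.436 and 0.375 CPM in the wild type. It was 12.2-fold higher late (3.61, SE 0.17, adjusted p = 4.44e-21), while alg3, the mannosyltransferase gene on its opposite strand, changed by -0.17 (SE 0.03). The wild-type value at 36 h in replicate 3 was 0.0797 CPM for snoR02, against 1.20 and 1.05 CPM in the other libraries of that group, and with replicate 3 left out of every group the difference was 3.34.

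snoR69b was higher in the deletion both early (2.15, SE 0.17, adjusted p = 1.72e-13) and late (2.93, SE 0.14, adjusted p = 1.24e-20). Its libraries at 24 to 48 h had a lowest, median and highest value of 2.86, 5.69 and 11.5 CPM in deletion cells, against 0.370, 0.834 and 1.22 CPM in wild-type cells, with no overlap. Lower late in the deletion were snR92 (-1.79, SE 0.15, adjusted p = 2.11e-13), snoU18 (-1.76, SE 0.14), snu3 (-1.60) and snu32 (-1.43). snR92, a box H/ACA RNA, had 1.31, 2.65 and 4.41 CPM as its lowest, median and highest late deletion values, against 6.85, 10.2 and 11.4 CPM in the wild type. The noncoding row SPNCRNA.1487 on the opposite strand of snR92 had a late difference of 0.85 (SE 0.21) and was not called. Early, fewer members were called than late: 1, snoR69b, was higher in the deletion and 4 were lower (2.35% and 4.6% of all genes), with a median of -0.24. The 4 were snR96 (-2.31, SE 0.28), snR92 (-1.83, SE 0.18), snr79 (-1.25, SE 0.05) and snoZ15 (-1.01, SE 0.25, adjusted p = 0.000445). At 4 h, 48.8% of tested members had every deletion library below every wild-type library, and 4.65% had every one above (34.7% and 36.5% of all genes). At 8 h these shares were 39.5% and 2.33% (30.3% and 31.3% of all genes). At 12 h they were 37.2% and 23.3% (34.0% and 31.9% of all genes).

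At 0 h, before starvation, the strains already differed. In the deletion 14 members were higher and 10 lower than in the wild type (13.8% and 15.9% of all genes), with a median of -0.04 against 0.12 for all genes. This comparison moved with the scaling: with library size alone 8 members were higher and the median of all genes shifted by -0.28, and with TMM over protein-coding genes 9 were higher and the shift was -0.17. The share of all genes' calls that were higher was 46.5% with TMM, 26.8% with library size alone and 34.2% with TMM over protein-coding genes. Of 10 tested intronic members 7 were higher, and of 27 standalone members 5 were higher and 9 lower. The intronic share depends on the scaling. Under both of the other scalings, the intronic snR191, snoU24b, snoZ15 and snoR39b lost their calls, as did the standalone snR90. snr79 had 9.90, 11.8 and 12.2 CPM in the deletion, against 45.2, 51.6 and 44.7 CPM in the wild type (-2.06, SE 0.07, adjusted p = 2.2e-24), while gpi12 on its opposite strand was higher in the deletion (1.06, SE 0.08). snR93 differed by -3.14 (SE 0.15) and snR30 by -1.74 (SE 0.07), both lower in the deletion. snoR47 was higher in the deletion (2.74, SE 0.38, adjusted p = 4.24e-08), as was snR41 (2.74, SE 0.39). snR96 (1.99, SE 0.84, adjusted p = 0.028) lost its call with library size alone (1.73, adjusted p = 0.0591), without replicate 1 (0.90, adjusted p = 0.426) and without replicate 2 (2.14, adjusted p = 0.068).

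Set against each strain's own 0 h, the late response differed between strains for 20 members: 15 had a higher late response in the deletion and 5 a lower one (20.5% and 17.7% of all genes), with a median of 0.53 and of -0.09 for all genes. The split of all genes' calls was 53.6% higher with TMM, 70.1% with library size alone and 65.7% with TMM over protein-coding genes, and the median of all genes shifted by 0.30 and 0.21 under these scalings. snR93 had the largest difference (4.22, SE 0.19, adjusted p = 8.39e-22). It had 8.75, 9.39 and 10.2 CPM in the deletion at 48 h, against 3.31, 1.80 and 2.70 CPM in the wild type, and 2.84, 2.14 and 2.34 CPM in the deletion at 0 h, against 20.6, 22.9 and 21.6 CPM in the wild type. The order of the strains was opposite at these times. The 2 strain baselines enter this comparison and the one at 0 h alike, so the calls are not independent.

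snR33 and snR93, the box H/ACA members with the deepest wild-type falls, are shown because these RNAs carry the class's defining letters near the end. Their sequences are from RefSeq assembly ASM294v3, chromosome II, minus strand for snR33 and plus strand for snR93, written 5′ to 3′ as DNA, with the ACA near the end in capitals.
snR33: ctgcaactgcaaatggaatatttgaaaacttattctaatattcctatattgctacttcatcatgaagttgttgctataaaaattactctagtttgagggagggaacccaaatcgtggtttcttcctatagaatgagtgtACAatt
snR93: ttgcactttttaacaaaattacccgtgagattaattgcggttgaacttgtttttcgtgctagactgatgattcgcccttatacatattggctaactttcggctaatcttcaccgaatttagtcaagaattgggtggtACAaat
snR33 had 0.782, 1.68 and 1.44 CPM in deletion cells at 48 h, against 0.504, 0.273 and 0.375 CPM in wild-type cells, far below 0 h in both strains. snR93 stood above its own 0 h in every deletion library at 48 h and below it in every wild-type library.

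snR51b and snR41, which had the largest late differences between strains, belong with snR70 to a group of 3 neighbouring snoRNAs. They lie within the noncoding transcript SPNCRNA.723, which has no row in the count table. The sequences below, from chromosome I, plus strand, of ASM294v3 in RefSeq, are shown for the letters they share, since the annotation gives them no class. Capitals mark TGATGA within the first 25 bases (the usual letters of box C) and CTGA within the last 25 bases (box D); snR70 holds the second of these runs but not the first.
snR41: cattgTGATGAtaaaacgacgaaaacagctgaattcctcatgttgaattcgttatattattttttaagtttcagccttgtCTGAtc
snR70: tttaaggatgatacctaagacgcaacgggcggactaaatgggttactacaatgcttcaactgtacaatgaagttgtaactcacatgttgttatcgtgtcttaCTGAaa
snR51b: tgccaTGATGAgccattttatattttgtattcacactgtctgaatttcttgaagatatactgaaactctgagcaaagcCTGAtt
snR51b had 35.5, 29.5 and 33.0 CPM in the deletion at 48 h, against 0.648, 0.436 and 0.749 CPM in the wild type. snR41 had 7.31, 6.58 and 6.66 CPM in the deletion, against 0.072, 0.273 and 0.150 CPM in the wild type. snR70 had 5.53, 5.61 and 6.91 CPM in the deletion, against 1.37, 1.42 and 1.05 CPM in the wild type. For all 3, every deletion library at 48 h lay above every wild-type library. The same held for 60.5% of the tested members and 40.5% of all genes tested.

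Over the late stage snR51b was 24.2-fold higher in the deletion (4.60, SE 0.12, adjusted p = 2.92e-29) and snR41 22.6-fold (4.50, SE 0.23, adjusted p = 1.05e-19), while snR70 differed by 1.31. In the wild type at 36 h, snR51b had 0.159 CPM in replicate 3 and 0.975 and 0.925 CPM in the other libraries, and with replicate 3 left out of every group its late difference was 4.53. The 3 did not share a late pattern in the wild type. Late against 0 h, snR70 was higher there (1.27), whereas snR51b was lower (-2.93). The call of snR70 was lost with library size alone and without replicate 3 (0.91). Early against 0 h, snR51b fell (-2.57), and snR70 (-0.93) and snR41 (-0.55) were not called. At 0 h the deletion already held more of snR41 (1.37, 1.29 and 1.30 CPM, against 0.164, 0.205 and 0.221 CPM in wild-type cells) and of snR70 (1.92, SE 0.32, adjusted p = 1.39e-06). The wild-type snR41 values are near the counting limit, with a highest late value of 0.370 CPM.

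**Figure D4:**
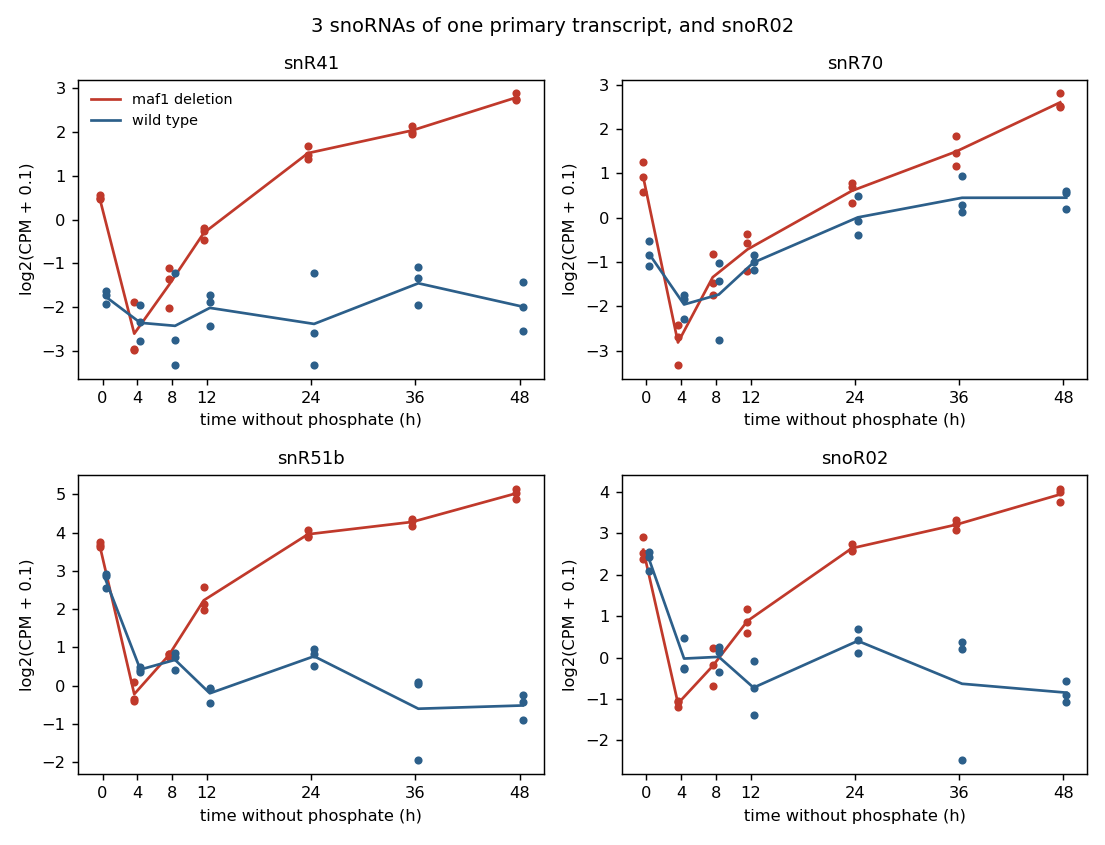
log2(CPM + 0.1) per library (vertical axis) against hours without phosphate for snR41, snR70, snR51b and snoR02, 1 panel each; red is the maf1 deletion, blue the wild type, and lines join the group means. At 48 h every deletion library of snR51b, snR41 and snR70 lies above every wild-type library, as is so for 40.5% of all genes tested.

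U3 is an abundant snoRNA that pairs with the precursor of small-subunit ribosomal RNA. Fission yeast has 2 U3 genes, snu3 on chromosome I and snu32 on chromosome II, both on the minus strand. The annotated spans are shifted against each other: bases 3 to 134 of snu3 (256 nt) align with bases 125 to 255 of snu32 (255 nt), with 115 identical, 16 mismatched and 1 gapped position (87.1% identity). The aligned stretches follow, 5′ to 3′ from ASM294v3 in RefSeq, with mismatched or gapped bases in capitals.
snu3: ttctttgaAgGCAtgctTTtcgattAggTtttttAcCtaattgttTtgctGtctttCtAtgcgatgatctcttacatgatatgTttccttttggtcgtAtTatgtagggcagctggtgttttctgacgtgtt
snu32: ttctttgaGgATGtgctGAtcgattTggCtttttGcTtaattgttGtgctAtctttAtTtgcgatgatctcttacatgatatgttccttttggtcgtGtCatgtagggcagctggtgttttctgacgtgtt
The longest run they share is 31 nt, so reads inside it could be set to either gene or dropped, and the 2 counts are uncertain to that degree. Because the spans are shifted, the 2 rows cover partly different bases, and their levels are not like measures. Whether the bases outside the aligned stretches belong to U3 was not tested.

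At 0 h snu32 had 2.02, 1.98 and 2.09 CPM in the deletion, against 34.1, 29.8 and 32.1 CPM in the wild type. It was 15.8-fold lower in the deletion (-3.98, SE 0.20, adjusted p = 6.28e-20), the largest fall among the tested members in that comparison, while snu3 was lower by a smaller amount (-1.32). snu3 had 2.44, 2.80 and 1.90 CPM in deletion cells, against 5.78, 5.63 and 6.36 CPM in wild-type cells. At 4 h both genes were low in both strains, with 0.980, 1.39 and 1.41 CPM of snu32 in deletion cells, against 1.18, 1.89 and 2.02 CPM in wild-type cells. By 48 h snu3 stood at 11.0, 12.3 and 14.1 CPM in the deletion, against 35.3, 31.2 and 26.1 CPM in the wild type, and the strains did not overlap. Of all genes tested, 40.7% had every deletion library below every wild-type library at 48 h. snu32 stood at 14.1, 13.9 and 15.6 CPM in the deletion, against 33.8, 32.7 and 26.9 CPM in the wild type. Late differences were -1.60 (SE 0.09, adjusted p = 1.09e-18) for snu3 and -1.43 (SE 0.10, adjusted p = 7.31e-16) for snu32. Against its own 0 h, snu32 rose late in the deletion (2.41, SE 0.18, adjusted p = 7.64e-15).

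**Figure D5:**
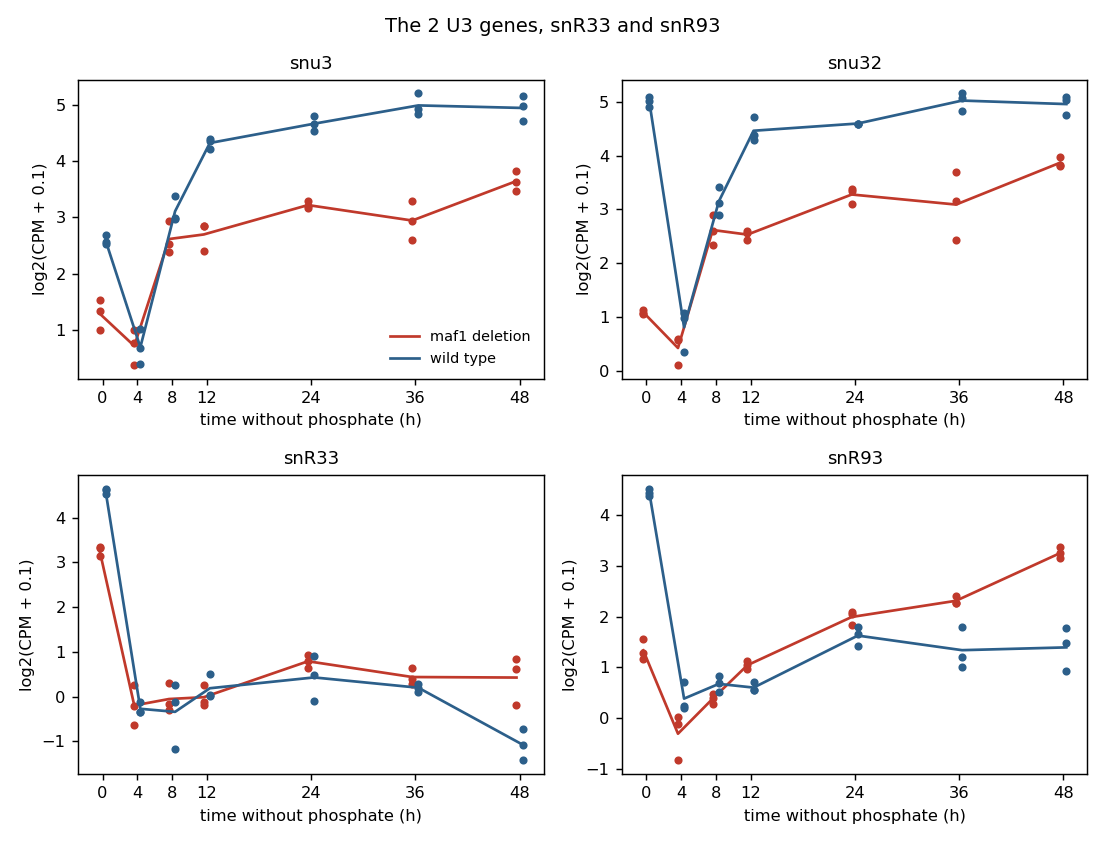
log2(CPM + 0.1) per library (vertical axis) of snu3, snu32, snR33 and snR93 against hours without phosphate, 1 panel each; red is the maf1 deletion, blue the wild type, and lines join the group means. Both U3 genes are lower in the deletion late, by -1.60 (snu3) and -1.43 (snu32) on the log2 scale.

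Of the 11 intronic members 10 were tested, and the changes of those named here stand beside those of the genes they lie in. In the deletion early against 0 h, snoR38 rose by 1.44 while its host SPAC29A4.02c, a translation elongation factor EF-1 gamma gene, changed by -1.55. snoR58 rose by 1.20 while ade4, a purine synthesis gene, changed by -1.41. snoU24b and its host cpc2, the ribosome-bound RACK1 gene, fell together (-3.17 and -3.25), as did snoR39b (-1.84) and the ribosomal protein gene rpl701 (-3.03) and snoR54 (-1.93) and the GMP synthesis pathway gene gua1 (-1.52). snoZ15 fell by 3.84 while its host, named gim6 in the files, was not called (-0.54). snR191 (-1.80) and snoR47 (-2.18) fell while their hosts nog2 and fta3 had -0.94 and -1.21. snoR39a, which was at 0 CPM in every deletion library at 4 h, had a fitted change of -5.04 and its host rlp7 one of -2.78. Late in the deletion against early, the hosts rlp7 (2.59), cpc2 (1.87), rpl701 (1.62) and nog2 (1.38) rose, and 13.2% of all genes were called higher. Other hosts did not rise. The means of ero11 were 241, 257 and 226 CPM at 4, 8 and 12 h and 196, 188 and 187 CPM at 24, 36 and 48 h. Those of SPAC29A4.02c were 752, 792 and 840 CPM early and 801, 661 and 598 CPM late. In the wild type late, snoU18 rose by 2.44 while ero11, an endoplasmic reticulum oxidase gene, had -0.46 and was not called. Whether a host and its snoRNA differ in their change was not tested.

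The letters of box C and box D together, TGATGA in the first 25 and CTGA in the last 25 bases on the gene's strand, were found in 18 of 57 members (31.6%) and in 19 of 6836 genes of all types (0.278%). They were in 17 of the 35 members without a class and in none of the 19 box H/ACA members. An ACA in the last 8 bases was found in 14 of the 19 box H/ACA members (73.7%), in 4 of the 35 without a class and in 10.3% of all genes. snoU14 and snoR69b (RefSeq, ASM294v3, plus strand of chromosomes II and I) are printed as members with both runs, in capitals.
snoU14: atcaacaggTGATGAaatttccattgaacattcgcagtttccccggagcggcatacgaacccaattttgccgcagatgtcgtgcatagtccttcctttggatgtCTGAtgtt
snoR69b: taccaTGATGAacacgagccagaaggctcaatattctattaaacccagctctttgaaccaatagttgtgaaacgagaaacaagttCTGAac
Of the 15 tested members with both runs, 7 were higher and 1 lower in the deletion than in the wild type late (median 0.98). Of the 15 tested box H/ACA members, 2 were higher and 2 lower (median 0.05).

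Promoters were read from 250 bases before to 50 bases after each annotated start. The HomolD box, CAGTCACA on either strand, a core element of ribosomal protein promoters in fission yeast, was found in 11 of 57 members (19.3%) and in 177 of 6835 promoters of all genes (2.59%). Of the 31 standalone members 8 held it (25.8%). The HomolE box, ACCCTACC on either strand, was in 1 member, sno20, and in 1.42% of all promoters, and TATAAA on either strand was in 50.9% of members and 47.5% of all promoters. The 120 bases before the start are shown for the 3 members whose HomolD match lies closest to it, from ASM294v3 in RefSeq, chromosome II, on the gene's strand (minus for snoR61, plus for sno20 and snR42), with the HomolD match in capitals.
snoR61: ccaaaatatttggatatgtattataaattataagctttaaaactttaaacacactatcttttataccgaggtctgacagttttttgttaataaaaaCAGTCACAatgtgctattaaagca
sno20: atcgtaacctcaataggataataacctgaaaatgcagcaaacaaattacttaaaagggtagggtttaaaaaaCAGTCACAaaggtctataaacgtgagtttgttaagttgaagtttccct
snR42: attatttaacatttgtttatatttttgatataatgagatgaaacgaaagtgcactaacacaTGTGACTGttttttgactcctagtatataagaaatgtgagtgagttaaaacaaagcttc
The match begins at -24 from the start in snoR61, at -48 in sno20 and at -59 in snR42, where it is on the opposite strand. These are letter matches and no measure of binding. In the deletion snR42 had 33.9, 32.5 and 36.3 CPM at 48 h and 5.81, 6.65 and 7.47 CPM at 0 h.

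Genes for the core proteins of snoRNA particles fell early, all 8 in the deletion (16.3% of all genes fell) and 5 of 8 in the wild type (18.9% of all genes). In the deletion early against 0 h, all 4 box C/D core genes fell (median -1.85), with fib1, the fibrillarin gene, at -2.07, nop58 at -1.88 and snu13 at -1.81. All 4 box H/ACA core genes fell too (median -2.45), with gar1 at -2.59, nhp2 at -2.48 and nop10 at -2.42. In the wild type early, 2 of the 4 box C/D genes (nop58 -1.22, fib1) and 3 of the 4 box H/ACA genes (nhp2 -2.04) fell. Late against early, changes of the box C/D genes ran from -0.20 to 0.50 in the deletion and from -0.08 to 0.51 in the wild type, and those of the box H/ACA genes from 0.31 to 0.85 and from 0.28 to 0.66 in these strains, all under the 2-fold limit. Late against the own 0 h, all 8 were lower in the deletion (18.7% of all genes were), and in the wild type 1 box C/D and 1 box H/ACA gene (nhp2, -1.52) were lower. The wild-type count is near the 20.1% of all genes that were lower there, and is not a result about these genes. Late, the deletion differed from the wild type by -0.43 to 0.06 in the box C/D genes and by -0.26 to 0.35 in the box H/ACA genes.

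Of 7 genes for U3 partners, 6 fell early in the deletion (mpp10 -2.04, rrp9 -1.89) and 3 in the wild type (sof1 -1.73, rrp9 -1.68, bms1 -1.64). In the deletion late over early, mpp10 rose (1.09), as did 13.2% of all genes, and this is not a result about the list. Of 19 genes for the nuclear exosome and its poly(A) cofactors, which trim snoRNA ends and destroy unprocessed RNA, 7 were lower late than at 0 h in the deletion (csl4 -1.77, the poly(A)-binding protein gene pab2 -1.64, rrp40 -1.47). The share of all genes in that direction was 18.7%. Early in the wild type 4 fell, among them cti1 (-1.23) and rrp40 (-1.18), and dis3 rose (1.15). Of 20 genes for snoRNA end processing and termination, 4 fell early in the deletion (sla1, the La protein gene, -2.54). In the wild type early 4 fell (pcf11 -1.60, lsm8 -1.49, sen1 -1.45) and 3 rose (lsm6 2.95, ssu72 1.57, lsm7 1.19). The early falls of the exosome and end-processing genes given here are near the shares of all genes that fell (16.3% in the deletion and 18.9% in the wild type), the 3 that rose are near the 19.6% of all genes that rose in the wild type, and these counts are not a result about the lists. Of 6 tested genes for assembly and cap hypermethylation, tgs1, the cap methyltransferase gene, was higher late in the deletion than in the wild type (1.12). Of all genes, 10.9% were called higher in that comparison, so the call of tgs1 is not a result about the list.

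The authors' deposited tables, which compare each sample with wild type 0 h and so share that baseline, give the same members by single times. At adjusted p under 0.05 and a change of at least 2-fold, the authors' deposited tables call 3 members higher and 25 lower in the wild type at 4 h, of 47 with a value (median -1.31), and 13 higher and 12 lower at 48 h. For the deletion the authors' deposited tables call 12 higher and 10 lower at 0 h, 1 higher and 29 lower at 4 h, and 24 higher and 6 lower at 48 h (median 1.37). Within the early stage the medians moved with time. At 8 and 12 h they were -0.98 and -0.19 in the wild type, and -0.68 and -0.39 in the deletion.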

How the data were processed

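The members are the rows whose deposited type is snoRNA gene, and all 57 matched the reference gene table by identifier. They, the gene lists and the comparisons were chosen with earlier results of these data known. Per the labels' protocols, stranded libraries of poly(A)+ RNA were sequenced in pairs on a NovaSeq machine.

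The authors deposited estimated counts per gene, whole numbers except that 0.5 takes the place of 0 in 19110 of 293538 values (6.51%); these were rounded, 0.5 to 0. The submitters' processing notes name, without saying what each did, HISAT2 2.1.0, HTSeq 0.10.0, SAMtools, DESeq2 and build ASM294v2. Strand setting, handling of reads with several positions and annotation version are not given in the sources used here. The authors also deposited, per the file headers, 13 tables with a log2 fold change and an adjusted p-value against wild type 0 h. Of 6989 lines in the count table, the pair sharing an identifier was summed.

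All 42 libraries and the 6521 genes kept by filterByExpr entered 1 edgeR 4.0.16 model (R 4.3.3) with a mean per group, TMM scaling, the quasi-likelihood test and 28 residual degrees of freedom. p-values were adjusted by Benjamini-Hochberg over these genes in each of 11 comparisons and in 2 more, 48 h against 24 h, that were chosen after seeing the data. Every adjusted p of a gene comes from this model unless the authors' tables are named. The standard error (SE) of a change was worked back from the test, as its absolute log2 value divided by the square root of its F statistic. On simulated counts for the wild type early against 0 h over 6521 genes, 100 of 100 genes changed by 1.5 (log2) and 100 of 100 changed by 2 were called, with 2 false calls. The changed genes were drawn only from those above a set mean count per library. Members such as snoR39a, snoR54b and snR96 lie below it, so this recovery does not cover them.

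The text names the 8 members with the highest level per kilobase, both U3 genes and, in each comparison, up to 4 members called in each direction with the largest change, and of each protein list up to 3. Other members and the host genes were named after their values were seen. Alternatives were DESeq2's size factors, DESeq2 1.42.0, library size alone, TMM over protein-coding genes, no filter, the replicate number as a block, and leaving out each replicate number. Sequences are from RefSeq assembly ASM294v3, another build than that of the counts, so no coordinates are printed.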

Additional observations from a re-analysis of the deposited data

Results flagged for a closer look

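The tests of the difference between strains picked out the following results. In the late response against each strain's own 0 h, 15 members differed with a higher response in the maf1 deletion and 5 with a lower one. The largest positive differences were those of snR93 (4.22), snR51b (3.67), snoR02 (3.34) and snoR61 (2.71) on the log2 scale. The largest negative ones were those of snR96 (-3.18), snoR47 (-2.04), snoR69 (-1.95) and snoU18 (-1.55). Replicate 3 of the wild type at 36 h was low for snR51b, snoR02 and snoR61, with 43.7 CPM of snoR61 against 69.9 and 66.1 CPM in the other libraries of that group, and its part in these differences was not tested: leaving out replicate 3 took that number from all 14 groups. In the change of the late over the early stage, 16 members differed, all with a higher change in the deletion. They were led by snoR39a (4.09), snR51b (3.92), snR41 (3.63) and snoR02 (3.52). snoR39a was at 0 CPM in every deletion library at 4 h, so its value rests on few counts. Single outlying values were not tested in groups of 3 libraries.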

How the results depend on the processing

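Of the 26 counts of called members, those that moved by over 1.5 times did so under few settings, and no value reversed. With library size alone, members lower late than early were 3 in the wild type (1 with TMM) and 1 in the maf1 deletion (0 with TMM), members higher in the deletion than in the wild type at 0 h were 8 (14 with TMM), and members lower at 48 h than at 24 h in the deletion were 1 (0 with TMM). With TMM over protein-coding genes the first of these was 2 and the count at 0 h was 9. The cause was not tested. Leaving out each replicate number in turn, from all 14 groups, gave 1 to 4 members lower late than early in the wild type (3 without replicate 1 and 4 without replicate 2), 0 to 1 lower late than early in the deletion, 0 to 1 with a lower late minus early change in the deletion, 3 to 7 lower at 48 h than at 24 h in the wild type (6 with every replicate), and 0 to 1 in the deletion. DESeq2, its size factors and the absence of a filter moved no count by over 1.5 times. Of 74 named changes in the 11 comparisons other than 48 h against 24 h, the calls lost were those of snR96 between strains at 0 h (with library size alone, without replicate 1 and without replicate 2), snoZ15 between strains early without replicate 2 (-0.95, adjusted p = 0.0137 by edgeR), snoR47 in the late response without replicate 3 (-1.32, adjusted p = 0.0757 by edgeR) and snoR39a in the difference between strains in the late minus early change without replicate 1 (3.37, adjusted p = 0.0607 by edgeR) and without replicate 2 (4.36, adjusted p = 1 by edgeR). Of the 8 named at 48 h against 24 h, snR191 (-1.02 without replicate 1), snR33 (-1.25 without replicate 2) and snoR02 (-1.41 without replicate 1, -1.39 without replicate 2) lost their calls in the wild type. With the replicate number as a block, members higher in the deletion at 0 h were 13 in place of 14 and members higher at 48 h than at 24 h in the deletion 14 in place of 13, and no named call changed. Deviations of same-numbered libraries had a median correlation of 0.024 over 273 pairs of groups (lowest -0.366, highest 0.257), so the numbers were not taken to pair libraries. Members with a mean under about 1 CPM rest on few counts per library.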
